A study of Mus musculus with 4 samples.

Results

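Ribosomal protein genes encode the proteins of the cytosolic ribosome, and the accessible chromatin at 78 of them was described here in B16F10 cells, a mouse melanoma line. The genes were chosen by symbol: Rpl or Rps, then digits, then at most 1 letter or an added l or x, among the 21887 protein-coding genes of the mouse GRCm38.p6 annotation on chromosomes 1 to 19, X and Y. Of these, 48 code for proteins of the large subunit (Rpl) and 30 for proteins of the small subunit (Rps), and kinases of the Rps6k family were left out. The symbol rule also leaves out 7 cytosolic ribosomal proteins with other names, such as Rplp0 and Rpsa, which are given at the end beside other gene lists. Open chromatin was profiled by ATAC-seq with the Omni-ATAC protocol, which uses the transposase Tn5 to cut and tag accessible DNA. The first group carried a guide RNA against Arid1a (sgArid1a, n = 2 libraries) and the second a scrambled guide (sgScramble, n = 2), and all 4 libraries came from B16F10 cells grown in vitro. The Arid1a product binds DNA and is a subunit of BAF, a SWI/SNF-type complex that moves nucleosomes. Whether the cells of a guide were 1 clone or a pool, and whether replicates were separate cultures, is not given in the sources used here, so the spread between replicates may be technical.

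Each ribosome holds a fixed set of proteins, and their genes are therefore known for strong, even and near-constant expression in growing cells. The promoters are typically short, rich in CpG and without a TATA box, and the transcripts of many begin with a C followed by a run of C and T, the 5′ terminal oligopyrimidine (TOP) start, through which mTOR signalling and LARP1 control their translation. Transcription factors such as GABP, SP1, YY1, MYC and NRF1 are known to act at subsets of these promoters. Some ribosomal proteins also have roles outside the ribosome, such as the binding of the p53 regulator MDM2 by the products of Rpl5, Rpl11 and Rpl23.

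The data for each library were a broad peak list made by the authors, and depth is unknown because the lists hold no counts. The sgArid1a lists were shorter, with 65353 and 71255 peaks covering 53.7 and 62.6 Mb, against 82319 and 85613 peaks covering 73.9 and 75.8 Mb in sgScramble. This gap in list length has the same direction as the mean covered lengths below, which are therefore also given for lists of equal length. The defining markers of the melanocyte lineage were open: all 7 (Mitf, Tyr, Dct, Tyrp1, Pmel, Mlana and Sox10) had a peak at a gene end in all 4 lists, with a summed length of 12607 to 13068 bp in sgArid1a and 11563 to 13236 bp in sgScramble. Of 9 markers of other cell types, 6 had no such peak in any list, among them Krt5, Krt14, Ptprc, Pecam1 and Cdh5, Col1a1 and Pdgfra had one in every list, and Cd3e had one in sgArid1a replicate 2 and sgScramble replicate 1 only. The summed length of those 9 was 702 to 2418 bp in sgArid1a and 1700 to 3074 bp in sgScramble, and its part in the results was not tested. Peaks within 2 kb of the Arid1a gene body covered 5839 and 6834 bp in sgArid1a, against 10123 and 9863 bp in sgScramble, and a peak list does not check that the gene was disrupted.

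The promoter sequences of 4 members are shown because they mark the ends of the range. By the highest fold within 2 kb, Rpl5 was the member of highest rank and Rpl35 the lowest of those with a peak over the start in all lists. Among members whose groups did not overlap, Rps10 had the largest reduction of covered length in sgArid1a cells and Rpl27 the largest increase of those with a sequence. Each runs 5′ to 3′ from 150 bases before to 25 bases from the RefSeq gene start (GRCm38.p6, sense strand). Capitals mark the first 5 bases from the start used and the letters GGGCGG (an SP1-type GC box) or CCGGAAG (an ETS-type site) on either strand.
Rpl5 (chr5:107900378-107900552, plus strand): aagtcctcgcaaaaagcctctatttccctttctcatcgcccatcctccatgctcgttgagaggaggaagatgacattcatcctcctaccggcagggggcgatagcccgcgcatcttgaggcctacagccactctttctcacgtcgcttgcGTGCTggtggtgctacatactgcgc
Rpl35 (chr2:39005107-39005281, minus strand): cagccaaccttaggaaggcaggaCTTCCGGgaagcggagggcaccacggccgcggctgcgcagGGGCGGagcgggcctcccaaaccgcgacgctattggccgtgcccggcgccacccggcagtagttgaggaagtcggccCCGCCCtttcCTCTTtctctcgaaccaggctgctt
Rps10 (chr17:27635220-27635394, minus strand): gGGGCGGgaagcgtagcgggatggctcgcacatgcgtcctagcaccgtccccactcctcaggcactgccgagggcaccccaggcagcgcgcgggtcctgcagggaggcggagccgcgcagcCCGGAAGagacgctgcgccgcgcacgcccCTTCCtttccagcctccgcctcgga
Rpl27 (chr11:101442095-101442269, plus strand): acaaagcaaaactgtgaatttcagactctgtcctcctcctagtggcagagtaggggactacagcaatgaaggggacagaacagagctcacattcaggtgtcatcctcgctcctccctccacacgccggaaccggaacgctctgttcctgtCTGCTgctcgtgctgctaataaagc
The Rpl35 and Rps10 starts begin with the 5 bases CTCTT and CTTCC, all pyrimidines, and both carry GC-box and ETS-type letters upstream. The Rpl5 start used, at 107900528, begins with GTGCT, and neither motif lies in its printed window. However, the annotated Rpl5 body begins upstream of it, at 107900508, where the printed bases read CTCTTTCTCA, a TOP-like start. The Rpl27 start begins with CTGCT, which a G interrupts.

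The RefSeq promoter table held 59 of the 78 members, with 250 bases before and 50 bases after each start, and the same window was searched in all 17492 protein-coding genes of that table. A TOP-like start (C at the start and at least 4 C or T after it, sense strand) was found at 12 of 59 members (20.3%), against 2.17% of all genes. With up to 5 bases of slack around the start it was found at 27 members (45.8%), against 18.8% of all genes. The 12 were Rpl14, Rpl15, Rpl28, Rpl32l, Rpl35, Rpl38, Rps10, Rps15a, Rps18, Rps21, Rps27 and Rps6. These counts hold for the starts of the promoter table, so the TOP-like letters at the edge of the Rpl5 body were not counted. CCGGAAG on either strand was found at 22 members (37.3%), against 11.9% of all promoters, and among these were Rpl11, Rps2, Rps6 and Rps7. GGGCGG on either strand was found at 33 members (55.9%), against 46.3%. The E-box CACGTG, the letters that MYC and MAX bind, was found at 5 members (8.47%), namely Rpl13a, Rpl14, Rpl19, Rpl23 and Rpl34, against 7.91%. The YY1-type letters AAGATGGCG were found at 3 (5.08%), namely Rpl13a, Rpl35a and Rps27, against 1.92%. The NRF1 consensus was found at 1 (1.69%), Rpl37a, against 1.33%, and TATAAA at 6 (10.2%), against 13.3%. The median GC content was 56.7% in members and 56.3% in all promoters, while the median number of CpG was 21 in members and 13 in all promoters. A match of letters is a description of the window and not a bound site.

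The starts of the ribosomal protein genes were open in both groups. Of the 59 members with a known start, 54 (91.5%) had a peak over it in all 4 lists, against 52.1% of the 17492 genes. The other 5, Rpl10l, Rpl22, Rpl32l, Rpl39l and Rpl3l, had none over it in any list. Rpl10l, Rpl39l and Rpl3l are paralogs known for expression in testis or striated muscle. Rpl22, a general ribosomal protein with a role in T cell development, has 2 starts in the table, and the one nearer the gene's edge was used. Its peak of 1200 and 1168 bp in sgArid1a and 1245 and 1152 bp in sgScramble lay 830 bp inside the gene body. Over the whole window of 2 kb around the gene body, 76 of 78 members had a peak in every list. Rpl39l had none in any list, and Rpl10l had 379 bp in sgScramble replicate 2 and 0 bp in both sgArid1a lists and sgScramble replicate 1.

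**Figure D1:**
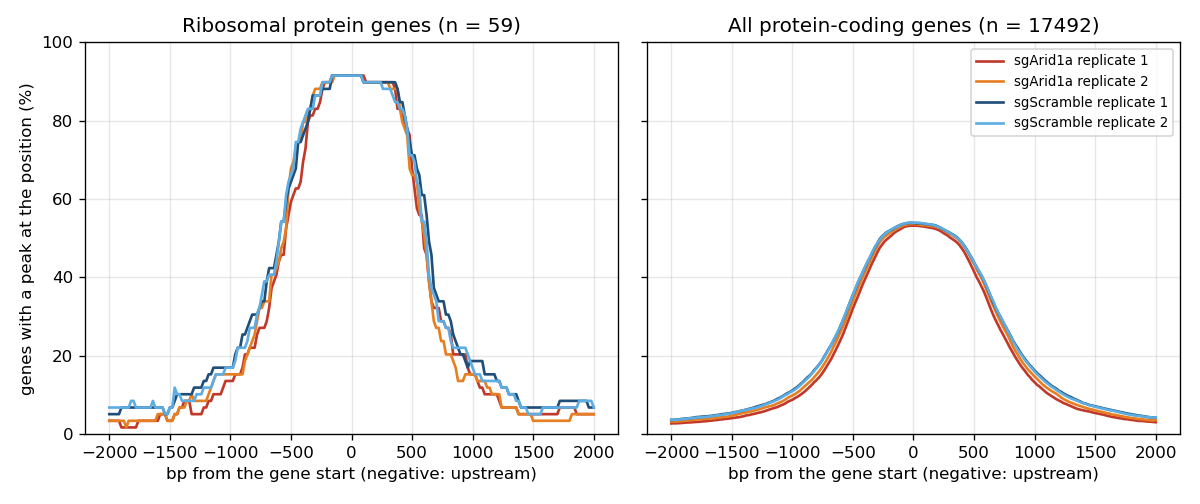
Share of genes with a peak (%) at each position from 2000 bp before to 2000 bp after the gene start, for 59 ribosomal protein genes (left) and 17492 protein-coding genes (right), with 1 line per library. At the start all 4 lines stand at 91.5% in ribosomal protein genes and at 53.2% to 54.0% in all genes.

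Away from the starts the share of members with a peak dropped, as the profile around the gene start shows. At 500 bp downstream it was 67.8% and 66.1% in sgArid1a and 71.2% in both sgScramble libraries. At 1000 bp downstream it was 15.3% in both sgArid1a libraries, against 18.6% and 16.9% in sgScramble. At 1000 bp upstream it was 13.6% and 15.3% in sgArid1a, against 16.9% in both sgScramble libraries. The groups overlapped at 500 bp upstream, with 59.3% and 67.8% in sgArid1a and 64.4% and 66.1% in sgScramble. Over all genes, the share at 1000 bp downstream was 13.2% and 14.7% in sgArid1a, against 16.2% and 16.0% in sgScramble. With 59 members, 1 gene is worth 1.69 percentage points, so the gaps between libraries in members amount to a few genes.

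Most accessible regions near ribosomal protein genes were found in every library. Merging the 4 lists where peaks overlapped by at least 1 bp gave 133 regions within 2 kb of a member, of which 104 (78.2%) held a peak in all lists, against 53.3% of the 66496 regions within 2 kb of any protein-coding gene. All 76 regions over an end of a member's body were in all 4 lists. The other regions varied more: 10 of 17 inside the body (58.8%) and 18 of 40 outside it (45%) were in all lists. These 2 shares lie on either side of the 53.3% near any gene. The share for regions over an end of any gene was not counted. The 78.2% and 53.3% were therefore not compared at like positions. An end was covered by a region in all lists at 70 of the 78 members.

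A peak called in both sgScramble libraries and absent from both sgArid1a lists was found at 4 of the 117 member regions that were in both sgScramble lists (3.42%), against 11.7% of such regions near any gene. Within 1 kb of a gene start, or of either end where no start was known, it was 1 of 80 (1.25%), against 1.75% of all such regions. The reverse, a peak called in both sgArid1a libraries and absent from both sgScramble lists, was found at 0 of 107 member regions, against 1.29% near any gene. A share of up to 2.80% is allowed by a count of 0 in 107 regions (3 counts), which covers counting error only. The 4 missing regions were low in fold, between percentiles 0.0085 and 2.13 within the sgScramble lists. Leaving out a library eases the rule, since fewer lists have to agree. Missing regions were then 7 and 10 without sgArid1a replicate 1 or 2, and 10 and 7 without sgScramble replicate 1 or 2, at shares of 5.83% to 8.55% against 15.9% to 21.5% of regions near any gene.

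The missing region at Rpl38, a large-subunit protein known in mouse for its part in translating Hox mRNAs, lay 510 bp outside the body (chromosome 11, 114672843 to 114673493, mm10), with 646 and 261 bp of peak in sgScramble. The one at Rpl7a lay 695 bp outside the body (chromosome 2, 26914007 to 26914550), with 500 and 544 bp in sgScramble. The Rpl7a window is shared with Med22 and Surf1, so this region cannot be assigned to 1 gene. The one at Rpl3, a protein beside the peptidyl transferase centre, lay inside the body 685 bp from an end (chromosome 15, 80078466 to 80078758), with 293 and 264 bp in sgScramble. The one at Rps27l, a p53-inducible paralog of Rps27, lay inside the body 59 bp from its end (chromosome 9, 66948999 to 66949463), with 465 and 353 bp in sgScramble. All 4 regions had 0 bp in both sgArid1a lists.

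Peaks covered less DNA around ribosomal protein genes in sgArid1a cells on average, in lists that were also shorter. The mean per member was 1671 and 1763 bp in sgArid1a libraries, against 1929 and 1891 bp in sgScramble libraries. The group means were 1717 ± 64.8 bp in sgArid1a and 1910 ± 26.7 bp in sgScramble (SD, n = 2 each), a difference of -193 bp, or 89.9% of sgScramble. The exact two-sided permutation test over libraries gave p = 0.333, the smallest that 2 libraries against 2 can give. Over all 16693 genes with a peak in any list, the means were 2691 ± 268 bp in sgArid1a and 3345 ± 38.2 bp in sgScramble, or 80.5% of sgScramble. The median per-gene ratio was 94.3% in members and 85.8% in all genes with a peak. Member bodies are short, with a median of 3152 bp against 17169 bp for all genes, so their windows hold less sequence away from the start.

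Both sgArid1a lists covered less than both sgScramble lists at 28 of the 77 members with a peak (36.4%), against 49.4% of all genes with a peak. Both covered more at 6 of 77 (7.79%), against 3.97% of all genes with a peak. The direction depended on the scale: with each library divided by its mean over all genes with a peak, the member difference was 208 bp. On that scale 3 members were covered less (3.90%, against 16.8% of all genes) and 44 more (57.1%, against 34.9%). The difference also turned, to 185 bp, when only peaks in the upper 50% by fold were kept. With lists cut to equal length, which removes the gap in peak number, it was -91.7 bp. In those lists 21 members were covered less (27.3%, against 37.5% of all genes) and 10 more (13.0%, against 9.02%). Without sgArid1a replicate 2, 48 members were covered less (62.3%), against 73.7% of all genes. Members covered more were 19 (24.7%) and 12 (15.6%) without sgArid1a replicate 1 or 2, against 18.3% and 9.89% of all genes. They were 15 (19.5%) and 11 (14.5%) without sgScramble replicate 1 or 2, against 9.35% and 9.997% of all genes.

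**Figure D2:**
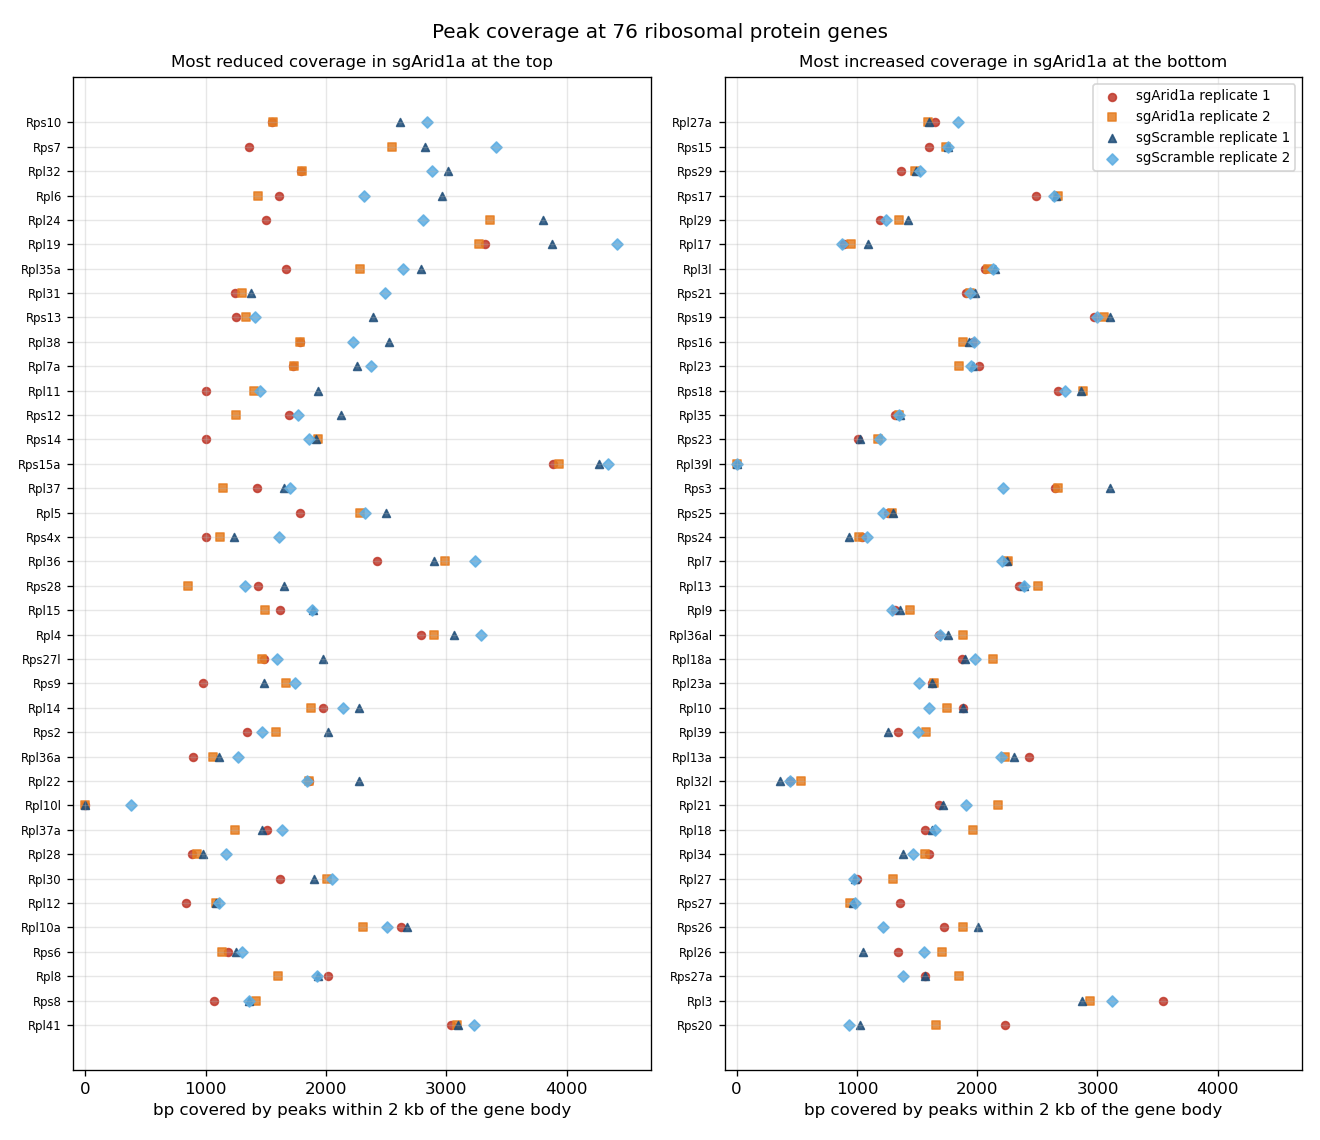
Base pairs covered by peaks within 2 kb of the gene body (x axis) for 76 of the 78 ribosomal protein genes, with 1 point per library. Genes are ordered by the difference sgArid1a minus sgScramble, from Rps10 (-1175 bp) at the top left to Rps20 (962 bp) at the bottom right. For most genes in between the 4 points lie close together or overlap.

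The members with the largest reduction kept a peak over a gene end in every list, and the place of the reduction differed between them. Rps10, a small-subunit protein that is ubiquitinated when ribosomes collide (chromosome 17, 27630415 to 27635244), was covered over 1551 and 1557 bp in sgArid1a, against 2619 and 2839 bp in sgScramble. The peak over its start, whose promoter is printed above, was 1192 and 1116 bp wide in sgArid1a and 1148 and 2228 bp in sgScramble. The region over its other end held 359 and 441 bp in sgArid1a, against 1471 and 611 bp in sgScramble. Thus a single sgScramble library was wide at each end, replicate 2 at the start and replicate 1 at the other end.

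Rps7, a small-subunit protein (chromosome 12, 28630847 to 28635953), was covered over 1363 and 2551 bp in sgArid1a, against 2822 and 3414 bp in sgScramble. The peak over its start was 1363 and 1510 bp wide in sgArid1a, against 2127 bp in both sgScramble libraries. Rpl32, a large-subunit protein (chromosome 6, 115805514 to 115808743), was covered over 1791 and 1803 bp in sgArid1a, against 3017 and 2878 bp in sgScramble. Its reduction lay in a region 269 bp outside the body, with 637 and 734 bp in sgArid1a against 1742 and 1798 bp in sgScramble. The region over its gene end was alike, with 1267 and 1201 bp in sgArid1a against 1285 and 1148 bp in sgScramble. The window of Rpl32 also overlaps Cand2 and Efcab12, so the outer region cannot be assigned to 1 gene.

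Rpl6, a large-subunit protein (chromosome 5, 121204501 to 121209241), was covered over 1608 and 1435 bp in sgArid1a, against 2964 and 2318 bp in sgScramble. The merged region over its gene start held 1373 and 1435 bp in sgArid1a, against 2402 and 1692 bp in sgScramble. The peak over the start itself was 1373 and 1435 bp wide in sgArid1a and 2402 and 1413 bp in sgScramble. Thus only sgScramble replicate 1 was wide there, and the groups overlapped. A region 1816 bp outside the body held 0 and 384 bp in sgArid1a and 870 and 315 bp in sgScramble, so the groups overlapped there.

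Among the 6 members covered more in sgArid1a, Rps20, a small-subunit protein (chromosome 4, 3831584 to 3835655), stood apart. It was covered over 2231 and 1654 bp in sgArid1a, against 1028 and 933 bp in sgScramble. The peak over its gene end was 1873 and 1654 bp wide in sgArid1a, against 1028 and 933 bp in sgScramble, and sgArid1a replicate 1 had a further peak of 358 bp outside the body. The other 5 differed by less. Rps27a, which is made as a fusion to ubiquitin, had 1569 and 1853 bp in sgArid1a, against 1568 and 1381 bp in sgScramble, so the nearest libraries were almost equal. Rpl27 had 1002 and 1302 bp in sgArid1a, against 988 and 979 bp in sgScramble, and its second sgArid1a library held a 276 bp peak outside the body. Rpl34 had 1602 and 1563 bp in sgArid1a, against 1385 and 1468 bp in sgScramble. The group means of Rpl23a, a protein at the exit of the ribosomal tunnel, and of Rpl7 differed by 67 and 27 bp.

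The most covered members were Rps15a, with 3886 and 3933 bp in sgArid1a against 4272 and 4343 bp in sgScramble, Rpl19, with 3320 and 3274 bp against 3882 and 4422 bp, and Rpl3, with 3547 and 2938 bp against 2875 and 3118 bp. Of these, Rps15a and Rpl19 were covered less in both sgArid1a libraries, and at Rpl3 the groups overlapped. At Rpl19 the difference lay in a region from the gene end outwards (chromosome 11, 98030481 to 98033635). It held 882 and 1061 bp in sgArid1a against 1958 and 3145 bp in sgScramble. The region runs past the 2 kb window, which is shared with Cacnb1, so not all of its length counts towards Rpl19. Its peaks were low in fold, at percentiles within the list of 1.08 and 1.52 in sgArid1a and 1.84 and 1.19 in sgScramble. The Rpl19 start peak was 1261 and 1300 bp wide in sgArid1a and 1172 and 1274 bp in sgScramble. The least covered beside Rpl39l and Rpl10l was Rpl32l, with 441 and 535 bp in sgArid1a and 364 and 447 bp in sgScramble.

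The peaks at ribosomal protein genes were weaker than those at most genes, and stood higher among all genes in the sgArid1a lists. The authors' fold of a peak was ranked within each list: the highest fold within 2 kb of a gene body was turned into a percentile among the 15425 protein-coding genes with a peak in all 4 lists. The mean member percentile was 34.9 and 31.8 in sgArid1a libraries, against 26.1 and 28.1 in sgScramble libraries. The difference was 6.22 percentile points between 33.3 ± 2.18 in sgArid1a and 27.1 ± 1.41 in sgScramble (SD, n = 2 each; exact two-sided permutation p = 0.333, the smallest possible). Of the 76 ranked members, 51 stood under the 50th percentile in all lists, 27 under the 25th, and 8 above the 50th.

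The percentile was higher in both sgArid1a lists at 34 of 76 members (44.7%), against 27.8% of all ranked genes. It was lower in both at 1 of 76 (1.32%), Rpl34, against 20.5% of all ranked genes. Without sgArid1a replicate 2 it was higher at 55 members (72.4%), against 43.4% of all ranked genes. It was lower at 13 and 5 members without sgArid1a replicate 1 or 2 and at 9 and 5 without sgScramble replicate 1 or 2, against 32.3% to 34.4% of all ranked genes. The higher ones were 17 of 30 small-subunit and 17 of 46 large-subunit members, and this split was not tested.

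**Figure D3:**
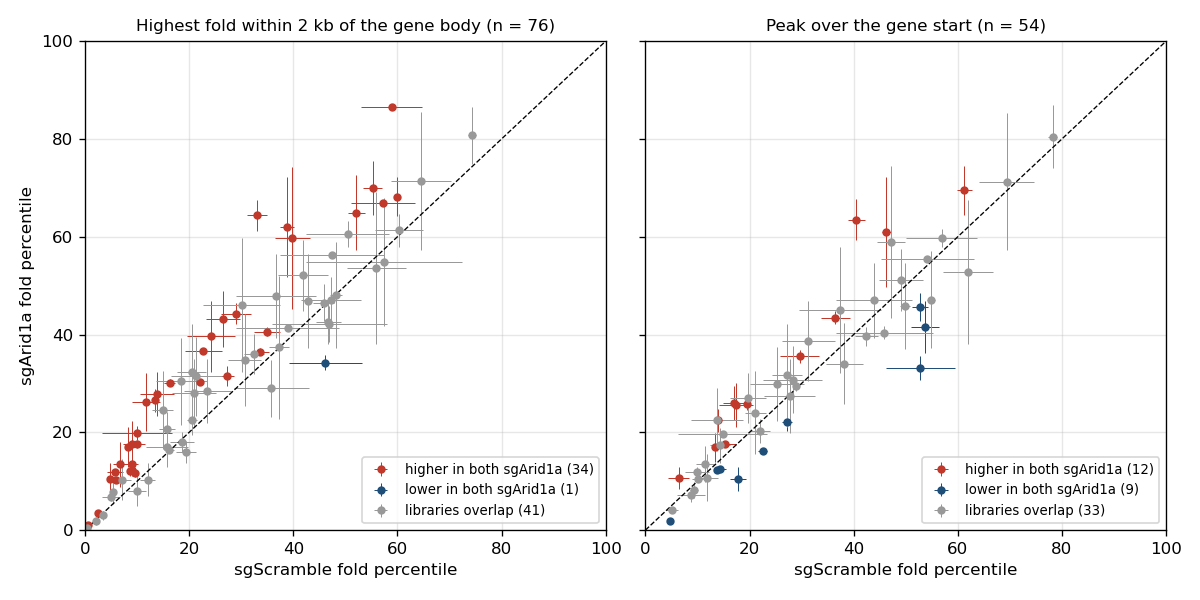
Mean fold percentile in sgArid1a (y axis) against sgScramble (x axis) for each ribosomal protein gene, with bars from the lower to the higher of the 2 libraries. On the left, by the highest fold within 2 kb of the gene body, 34 genes lie above the dashed line of equality with no overlap and 1 below it. On the right, by the peak over the gene start, 12 lie above and 9 below.

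The difference in percentile was smaller at the starts themselves. For the peak over the gene start, ranked among the 9114 genes with such a peak in all lists, the mean over 54 members was 32.9 and 31.1 in sgArid1a, against 29.95 and 31.05 in sgScramble. The groups differed by 1.49 percentile points, from 32.0 ± 1.27 in sgArid1a and 30.5 ± 0.776 in sgScramble. The start percentile was higher in both sgArid1a lists at 12 of 54 members (22.2%), against 22% of all such genes, and lower at 9 (16.7%), against 23.4%. The window-based ranking likewise gave a difference of 0.832 points when genes were ranked by the authors' −log10 p in place of the fold, with 12 members higher (15.8%, against 23.9% of all genes) and 10 lower (13.2%, against 24.0%). Ranking by the start peak was added after the window-based values were seen.

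The start peaks of members were narrower by the mean in sgArid1a cells, close to what was found at all genes, but their median widths overlapped. The mean width over 54 members was 1370 and 1397 bp in sgArid1a libraries, against 1535 and 1470 bp in sgScramble libraries, or 92.1% of sgScramble. Over all 9114 genes it was 94.0% of sgScramble. The median width of members was 1316 and 1271.5 bp in sgArid1a and 1366 and 1313.5 bp in sgScramble, so the groups overlapped. Over all genes the medians were 1333 and 1390 bp in sgArid1a, against 1442 and 1434 bp in sgScramble, without overlap. The start peak was narrower in both sgArid1a lists at 19 of 54 members (35.2%), against 38.3% of all genes with a start peak, and wider at 3 (5.56%), against 6.7%. The 3 wider ones were Rpl10, Rpl27 and Rpl34. Both flanks took part: the mean reach upstream of the start was 671 ± 33.2 bp in sgArid1a and 738 ± 18.3 bp in sgScramble, and downstream 711 ± 14.0 bp in sgArid1a and 763 ± 27.0 bp in sgScramble (SD, n = 2 each).

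The largest percentile differences without overlap were at Rps6, Rpl4, Rpl37a, Rps3 and Rpl35a, all higher in sgArid1a. Rps6, the classic substrate of the S6 kinases downstream of mTOR (chromosome 4, 86854099 to 86857367), stood at percentiles 61.1 and 67.6 in sgArid1a, against 31.1 and 34.9 in sgScramble. Its fold was 5.90 in both sgArid1a libraries, against 4.83 and 4.98 in sgScramble, and its only peak was 1187 and 1136 bp wide in sgArid1a against 1256 and 1303 bp in sgScramble. Rps6 was thus higher in percentile and narrower in both sgArid1a libraries. Its start percentile was also higher, at 59.4 and 67.6 in sgArid1a against 38.8 and 42.1 in sgScramble.

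Rpl4, whose protein lines the exit tunnel, stood at 86.3 and 86.9 in sgArid1a, against 53.1 and 64.7 in sgScramble. The peak behind this rank lay 31 bp outside the body (chromosome 9, 64178593 to 64179769), in a window shared with Zwilch and Snapc5. By the peak over its own start Rpl4 stood at 29.6 and 22.5 in sgArid1a, against 19.3 and 14.8 in sgScramble, higher but far lower in rank. Rpl37a stood at 51.7 and 72.1 in sgArid1a, against 37.5 and 40.1 in sgScramble. Rps3, a protein at the mRNA entry, stood at 45.3 and 74.2 in sgArid1a, against 36.5 and 43.1 in sgScramble, and by its start peak the groups overlapped. Rpl35a, a gene mutated in some patients with Diamond-Blackfan anaemia, stood at 48.9 and 37.4 in sgArid1a, against 23.2 and 29.8 in sgScramble. Its strongest region lay 1376 bp outside the body, in a window shared with Iqcg and Lmln. The 1 lower member, Rpl34, stood at 32.7 and 35.8 in sgArid1a, against 53.2 and 39.2 in sgScramble, and its start peak was wider in both sgArid1a libraries.

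Fold ranks spread widely within the family. Rpl5, a component of the 5S ribonucleoprotein, ranked highest over the 4 lists, at percentiles 74.95 and 86.6 in sgArid1a and 73.6 and 75.1 in sgScramble, and its groups overlapped. After Rpl4 came Rps23, a protein of the decoding centre, at 85.4 and 57.2 in sgArid1a and 70.3 and 58.8 in sgScramble, with overlap. Rps27l stood at 75.4 and 64.5 in sgArid1a, against 53.4 and 57.1 in sgScramble, without overlap. The member of lowest rank was Rpl8, a protein near the peptidyl transferase centre, at 0.32 and 0.67 in sgArid1a and 0.56 and 0.20 in sgScramble. Rpl32l stood at 1.02 and 2.63 in sgArid1a and 2.45 and 1.86 in sgScramble. Rpl35, shown above with its pyrimidine-rich start, stood at 3.56 and 3.40 in sgArid1a against 1.83 and 3.29 in sgScramble, and Rpl23a at 3.97 and 2.03 in sgArid1a and 3.45 and 3.32 in sgScramble.

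Rpl5, Rpl11 and Rpl23, whose products bind MDM2, are given by their values, and their counts are too few to set against the 49.4% of all genes covered less. Rpl11 was covered over 1007 and 1399 bp in sgArid1a, against 1931 and 1454 bp in sgScramble, and its percentiles overlapped. Rpl5 was covered over 1788 and 2283 bp in sgArid1a, against 2500 and 2328 bp in sgScramble, so the nearest libraries lay close. Rpl23 overlapped in covered length, at 2012 and 1850 bp in sgArid1a and 1963 and 1949 bp in sgScramble, although its start peak was narrower, at 1155 and 1161 bp in sgArid1a against 1206 and 1192 bp in sgScramble.

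Of members known for disease or immune roles, Rps19, a gene often mutated in Diamond-Blackfan anaemia, overlapped in covered length, with 2969 and 3053 bp in sgArid1a and 3100 and 2992 bp in sgScramble. Rps26 also overlapped, with 1722 and 1882 bp in sgArid1a and 2004 and 1213 bp in sgScramble. Rps14, the gene of the 5q deletion syndrome in humans, overlapped in covered length and stood higher in percentile, at 67.4 and 66.4 in sgArid1a against 63.4 and 51.2 in sgScramble. Rpl13a, known for silencing inflammatory mRNAs after interferon gamma, overlapped in covered length, with 2430 and 2230 bp in sgArid1a and 2306 and 2198 bp in sgScramble. Its start percentile was lower, at 15.9 and 16.6 in sgArid1a against 21.7 and 23.4 in sgScramble.

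Among the paralogs with peaks listed here, Rps4x, Rpl3l and Rps27l were covered less in both sgArid1a libraries. They are too few to set against the 49.4% of all genes covered less. Rpl36al, an autosomal copy of the X-linked Rpl36a, overlapped in covered length, with 1686 and 1880 bp in sgArid1a and 1760 and 1688 bp in sgScramble. Rps4x, the X-linked copy of its family, was covered over 1001 and 1118 bp in sgArid1a, against 1238 and 1612 bp in sgScramble. Rpl3l, the striated-muscle paralog of Rpl3, was covered over 2069 and 2090 bp in sgArid1a, against 2151 and 2135 bp in sgScramble, but had no peak over its start. Rps27l was covered over 1484 and 1469 bp in sgArid1a, against 1975 and 1591 bp in sgScramble. The strongest region of Rpl3l, over the end of the body at chromosome 17, 24735900 to 24737728, lies in a window shared with Msrb1. Ribosomal protein exons have many processed copies in the genome, and how the authors treated reads that map to several places is not given in the sources used here. In all, 40 of the 78 windows overlap the body of another protein-coding gene. Without those members, 14 of 37 were covered less (37.8%, against 49.4% of all genes) and 3 more (8.11%, against 3.97%). Of 36 ranked, 18 stood higher in percentile (50%, against 27.8% of all genes) and 1 lower (2.78%, against 20.5%).

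Genes that act with the ribosome were set beside the members by count. The shares of all genes to read them against are those given above, 49.4% covered less, 3.97% more, 27.8% higher and 20.5% lower in percentile, and 11.7% of regions missing. The 7 other cytosolic ribosomal proteins (among them Rpsa, Rplp0, Rplp1, Rplp2, Fau and Rack1) had 3 genes covered less (42.9%), 1 covered more (14.3%), 4 higher in percentile (57.1%) and 0 lower. Rpsa, the laminin receptor protein, was covered over 2798 and 2809 bp in sgArid1a, against 3577 and 3437 bp in sgScramble. Rplp2, a stalk protein, was covered over 1023 and 1028 bp in sgArid1a, against 872 and 928 bp in sgScramble. None of their 12 regions was missing from the sgArid1a lists.

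The 78 mitochondrial ribosomal proteins, which are built into a different ribosome, ranked higher by fold. Their median percentile was 66.1 in sgArid1a and 61.6 in sgScramble, against 30.9 and 22.3 for the cytosolic members. Their bodies were also longer, with a median of 7690.5 bp against 3151.5 bp, and the part of window length in this rank was not tested. Of the mitochondrial ones 33 were covered less (42.3%, against 49.4% of all genes) and 1 more (1.28%, against 3.97%). In percentile 32 stood higher (41.0%, against 27.8%) and 11 lower (14.1%, against 20.5%). They had 9 missing regions of 138 (6.52%, against 11.7% near any gene), 2 each at Mrps9 and Mrps27 and 1 each at Mrpl10, Mrpl14, Mrps10, Mrps28 and Mrpl17, and Mrpl14 also had 1 region in the sgArid1a lists only. Of 25 ribosome biogenesis genes 16 were covered less (64.0%, against 49.4% of all genes) and 0 more, and 8 stood higher (32.0%, against 27.8%) and 0 lower (against 20.5%). They had 1 missing region of 54 (1.85%), at Bop1. Of 20 translation factors 7 were covered less (35%, against 49.4%) and 1 more (5%, against 3.97%), and 11 stood higher (55.0%, against 27.8%) and 2 lower (10%, against 20.5%). They had 4 missing regions of 46 (8.70%), 2 at Eif3h and 1 each at Eef1d and Eif3a. Of 13 regulators of ribosomal protein synthesis 7 were covered less (53.8%, near the 49.4% of all genes) and 0 more, and 6 stood higher (46.2%, against 27.8%) and 1 lower (7.69%, against 20.5%). Their 9 missing regions of 66 (13.6%) were near the 11.7% of regions around any gene, with 4 at Rptor, the mTOR complex partner, 2 at Tsc2, its upstream inhibitor, and 1 each at Mtor, Larp1 and Max.

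**Figure D4:**
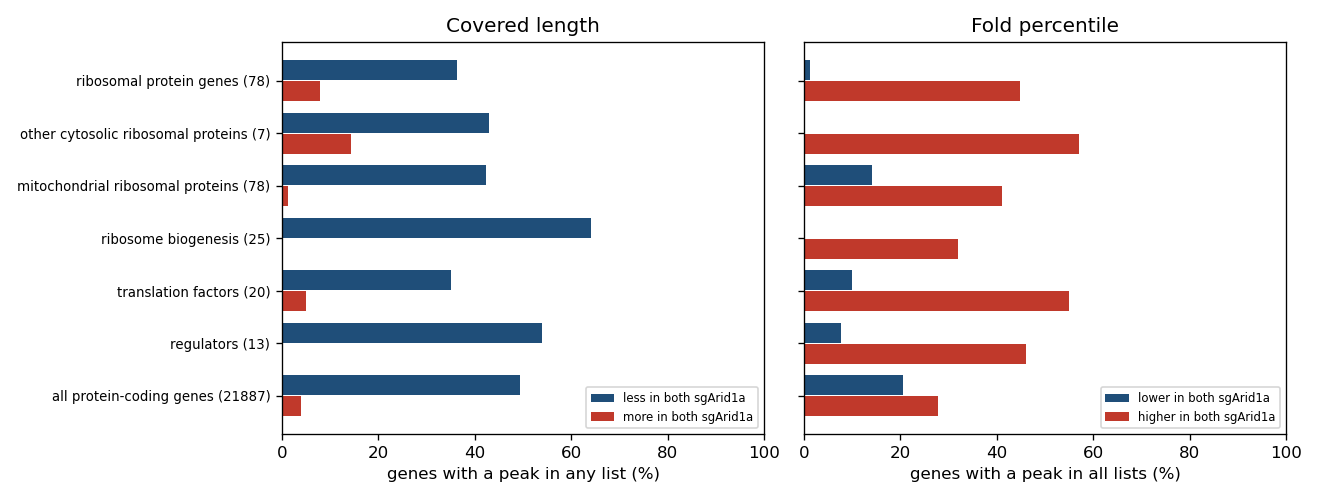
Share of genes (%) covered less or more (left) and with a lower or higher fold percentile (right) in both sgArid1a than in both sgScramble libraries, for the ribosomal protein genes, 5 other gene lists and all protein-coding genes, with list sizes in brackets. Ribosomal protein genes stand at 36.4% covered less, below the 49.4% of all genes, and at 1.32% lower in percentile, below 20.5%.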

How the data were processed

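ATAC-seq libraries of 2 sgArid1a and 2 sgScramble samples were used, grouped by their titles. In the sgScramble lists peak names start with sgNT. The authors called peaks in each library alone and deposited 4 lists. The deposited columns are a score, a fold ratio over background, a −log10 p and a −log10 q, as the authors made them. Per the submitters' processing notes, STAR 2.5.3a, HOMER, GRCm38 and mm10 were named, without their roles. For the peak caller and any Tn5 shift, the sources used here give nothing. Fold and −log10 p depend on depth, which is unknown, so they were compared by rank within a list. The raw folds given for Rps6 are not adjusted for depth.

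Gene bodies and promoter sequences came from RefSeq tables of GRCm38.p6. Covered length, highest fold and merged regions (1 bp overlap) were taken within 2 kb of a body, and 1-based coordinates are given. With several starts, the one nearest the gene's edge was used. A gene was counted where both sgArid1a values lay below, or above, both sgScramble values, beside the share of all genes. Group means were compared by an exact two-sided permutation test over libraries. The steps were tested on simulated peak lists. Named were the members with the 5 largest differences each way, the highest and lowest in level, those absent from a list or with a missing region, paralogs, members with roles beyond the ribosome, and genes of other lists with missing regions. Some genes that this rule names are not reported here. Members and lists were chosen with earlier results of these data known. Alternatives were window, q, list length, upper 50% by fold, width, shared windows, scaling, ranked column, overlap, each library left out and a replicate block. Python 3.11.15, numpy 2.4.6, pandas 2.3.3, SciPy 1.17.1 and matplotlib 3.10.9 were used.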

Additional observations from a re-analysis of the deposited data

How the results depend on the processing

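Shares in brackets are those of members, then of all genes or regions under the same setting. The mean covered length stayed lower in sgArid1a under every alternative except 2: it turned to 185.5 bp when only peaks in the upper 50% by fold were kept and to 207.5 bp when scaled by each library's mean over all genes. The percentile difference stayed positive under every alternative run, from 0.832 to 8.51 points. Without 1 library at a time, the covered-length difference was -239 to -148 bp and the percentile difference 4.84 to 7.83 points. Members covered less numbered 28. They were 12 with the upper 50% by fold (18.2%, 40.5%), 14 among members alone in their window (37.8%, 49.4%), 3 when scaled (3.90%, 16.8%), and 36 to 48 without 1 library (46.8% to 62.3%, 57.3% to 73.7%). Members covered more numbered 6. They were 10 with lists of equal length (13.0%, 9.02%), 13 with the upper 50% (19.7%, 8.44%), 3 among members alone in their window (8.11%, 3.97%), 44 when scaled (57.1%, 34.9%), and 11 to 19 without 1 library (14.5% to 24.7%, 9.35% to 18.3%). Members higher in percentile numbered 34. They were 15 within 1 kb of the gene start (20.8%, 23.0%), 16 with the upper 50% (32.7%, 25.5%), 18 among members alone in their window (50%, 27.8%), 12 by −log10 p (15.8%, 23.9%), 12 by the start peak (22.2%, 22%), and 42 to 55 without 1 library (55.3% to 72.4%, 40.3% to 43.4%). Within 1 kb of the start, by −log10 p and by the start peak the members' share was thus close to or below that of all genes. Members lower in percentile numbered 1. They were 10 within 1 kb of the start (13.9%, 22.6%), 6 at a −log10 q of at least 5 (8%, 20.8%), 2 with peaks of at least 500 bp (2.67%, 20.8%), 10 by −log10 p (13.2%, 24.0%), 9 by the start peak (16.7%, 23.4%), and 5 to 13 without 1 library (6.58% to 17.1%, 32.3% to 34.4%). Missing regions numbered 4. They were 1 within 1 kb of the start (1.25%, 1.75%), 1 with lists of equal length (0.952%, 6.19%), 0 with the upper 50% (against 12.9%), 2 with peaks of at least 500 bp (1.89%, 12.2%), 7 when a peak had to cover 50% of the region (6.54%, 17.3%), and 7 to 10 without 1 library (5.83% to 8.55%, 15.9% to 21.5%). Regions in the sgArid1a lists only numbered 0. They were 3 with lists of equal length (2.80%, 4.29%), 5 with the upper 50% (7.94%, 4.61%), 1 with the 50% overlap (1.01%, 1.94%), and 1 to 2 without 1 library (0.885% to 1.87%, 2.65% to 7.83%). Counts were larger without a library because fewer lists then have to agree. With replicate number as a replicate block, 35 members were covered less (45.5%, 58.96%), 11 more (14.3%, 6.57%), 43 stood higher (56.6%, 34.7%) and 4 lower (5.26%, 27.2%). The block changes these counts only. The mean differences, such as -193 bp, stay the same by construction and are no check. The labels do not say that equal numbers share a culture, and same-numbered libraries did not deviate together (r = -0.020 over 78 members). Causes of the other changes were not tested. Unknown depth, 2 libraries a group and peak edges set by the caller limit every value, and no gene could be tested alone.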
